A study of Mus musculus with 18 samples.

Results

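Trp53, which encodes the transcription factor p53, and 9 genes known as its targets were followed in mouse thymocytes: Cdkn1a, Mdm2, Ccng1, Trp53inp1, Zmat3, Phlda3, Sesn2, Pmaip1 and Perp. The 10 genes were chosen by name from 22619 genes in the count table, and all 10 were found in it. Cells came from wild-type thymi that had been grafted for 28 days and were sorted as DN3 cells, which lack CD4 and CD8 and rearrange T-cell receptor beta genes, or as DP cells, a later stage with both coreceptors. The study compared 2 conditions at each stage. Under turnover, host progenitors seed the graft and replace its thymocytes. Under autonomy, the graft sustains thymocyte output by itself. There were 4 libraries of DN3 turnover, 5 of DN3 autonomy, 4 of DP turnover and 5 of DP autonomy, and all 18 share the wild-type graft and its age. The host, strain and age of the mice are not stated in the labels, nor is it stated that libraries of a group are from different animals, so that p-values reflect the spread among libraries, which may be technical. The turnover libraries are labelled RP1140A, RP1140B, RP1141A and RP1141B at each stage. The labels do not say whether A and B of a number are from 1 graft or animal, which would leave 2 independent samples in a turnover group. They were counted as separate (n = 4), and results are also given with A and B summed. Libraries are called by their label names, such as RP1135.

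p53 is held at a low level by Mdm2, a ubiquitin ligase that p53 itself induces, and it is stabilised when DNA is damaged or when growth signals are abnormal. It binds DNA as a tetramer at a pair of decamers and turns on genes that stop the cell cycle, repair DNA, restrain growth or trigger death. In developing T cells it is known as a checkpoint at the DN3 to DP step, where cells that fail to rearrange the beta chain are held back, and its loss favours thymic lymphoma. Many of its targets are also driven by other factors, so that their RNA is not a measure of p53 activity alone.

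The promoters of the members show where the p53 decamer stands next to their starts. Of the 10 genes, 6 matched RefSeq promoter entries of build GRCm38.p6, with 7 windows, since Cdkn1a has 2 starts. Trp53inp1, Zmat3, Pmaip1 and Perp were not among them. The 250 bases before each start were searched for the p53 decamer consensus, which reads the same on both strands, and for a directly adjacent pair of decamers with at most 1 mismatch. An exact decamer was found in 4 of the 6 genes (Trp53, Cdkn1a, Mdm2 and Ccng1), and in 7.13% of all 32851 windows of that length. An adjacent pair was found in Cdkn1a and Ccng1, each with 1 mismatch, and in 0.0761% of all windows. A match describes letters only. The windows of Cdkn1a, Ccng1 and Mdm2, 3 of the 4 genes with an exact decamer, are printed 5′ to 3′ on the gene's strand, and that of Trp53 is not. Of the 3, Cdkn1a passed the test in DN3 autonomy. Capitals mark decamers and, where there is one, the adjacent pair.
Cdkn1a, chr17:29090729-29090978, plus strand: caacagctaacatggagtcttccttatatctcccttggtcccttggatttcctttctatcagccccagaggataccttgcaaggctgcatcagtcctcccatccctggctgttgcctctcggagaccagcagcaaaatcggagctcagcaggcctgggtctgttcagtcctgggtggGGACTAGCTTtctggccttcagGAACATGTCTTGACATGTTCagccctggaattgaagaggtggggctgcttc
Ccng1, chr11:40755287-40755536, minus strand: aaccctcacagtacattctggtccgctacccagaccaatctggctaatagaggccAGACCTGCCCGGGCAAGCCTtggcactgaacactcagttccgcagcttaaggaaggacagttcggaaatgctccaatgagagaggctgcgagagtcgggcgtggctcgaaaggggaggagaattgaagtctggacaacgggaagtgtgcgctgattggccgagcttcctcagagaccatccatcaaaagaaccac
Mdm2, chr10:117710759-117711008, minus strand: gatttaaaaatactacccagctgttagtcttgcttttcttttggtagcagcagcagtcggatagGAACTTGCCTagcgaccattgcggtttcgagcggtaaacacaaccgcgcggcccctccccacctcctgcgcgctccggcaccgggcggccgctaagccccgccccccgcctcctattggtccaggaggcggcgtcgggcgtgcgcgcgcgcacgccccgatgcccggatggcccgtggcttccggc
In Cdkn1a the pair runs from −51 to −32 before the start, at chr17:29090928-29090947, and a further exact decamer begins at −73. In Ccng1 the pair runs from −195 to −176, at chr11:40755462-40755481. Mdm2 holds a single exact decamer from −186 to −177, and Trp53 one from −75 to −66. The second Cdkn1a start, Phlda3 and Sesn2 hold none in this window.

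**Figure D1:**
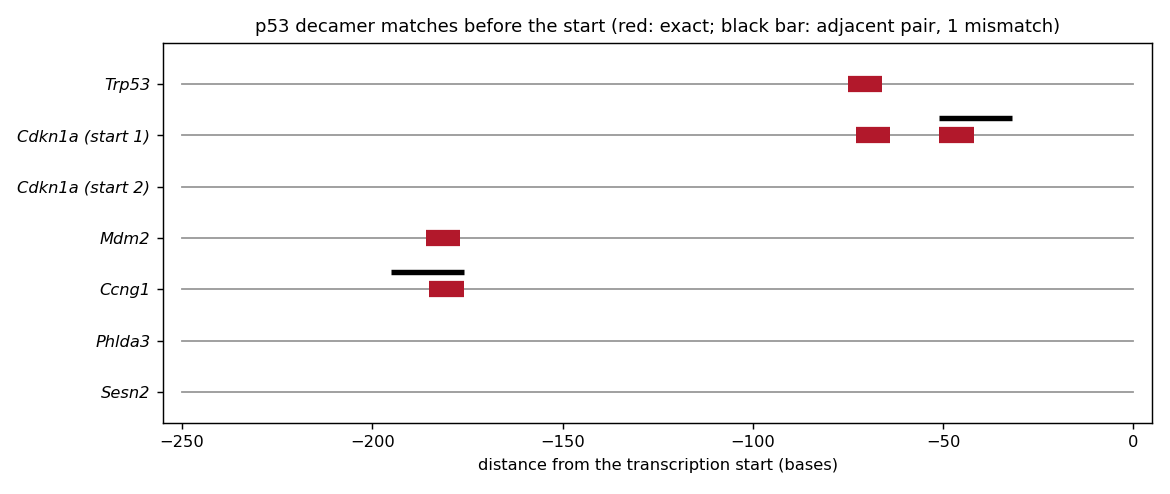
Position of p53 decamer matches in the 250 bases before the start of 6 genes (x axis, bases from the transcription start; red, exact decamer; black bar, adjacent pair with 1 mismatch). Cdkn1a and Ccng1 hold a pair, Trp53 and Mdm2 an exact decamer alone, and the second Cdkn1a start, Phlda3 and Sesn2 neither.

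Total counts ran from 5032273 to 24191044 per library. Levels below are CPM, counts scaled by library size on a common TMM scale, and comparisons between genes use CPM per kilobase of exon. The sorted stages matched their markers: 6 DN3 markers summed to 829 to 1862 CPM in DN3 libraries and 59.0 to 237 CPM in DP libraries, and 6 DP markers to 7762 to 8744 CPM in DP libraries. One DN3 turnover library, RP1141B, held 2106 CPM of DP markers, against 547 to 1205 CPM in the other 8 DN3 libraries. The summed markers of 5 lists for other cells were lower in DN3 autonomy than in DN3 turnover, although some single markers were read only in autonomy. The sum of 5 NK cell markers was 113 to 160 CPM in turnover and 5.58 to 65.2 CPM in autonomy, with 3 of the 5 read in turnover (Ncr1 and Klre1 at 0) and 4 in autonomy (Klrb1c at 0). For 9 macrophage and dendritic cell markers, 8 of them read in each group, the sums were 46.6 to 59.5 CPM and 8.58 to 22.6 CPM. For 6 mast cell and granulocyte markers, 2 of them read in each group, they were 50.4 to 120 CPM and 3.03 to 27.2 CPM. Mpo was read only in turnover and S100a8 only in autonomy. For 5 B cell markers, 2 and 3 of them read, they were 52.3 to 91.4 CPM and 13.2 to 42.2 CPM. Ms4a1 and Pax5 were at 0 in both, and Cd79a was read only in autonomy. For 8 thymic stroma markers, 4 and 6 of them read, with Krt5 and Pdgfra at 0 in both, they were 180 to 214 CPM and 73.5 to 140 CPM. Foxn1 and Col1a1 were read only in autonomy. Few of these genes were tested: 1 NK cell, 3 macrophage and dendritic cell, 1 mast cell and granulocyte, 1 B cell and 2 stroma markers. Those called lower numbered 1, 2, 1, 1 and 2. RP1135 was the highest DN3 autonomy library in each of these 5 lists. Erythroid markers stayed under 10 CPM in every library. In bulk RNA, fewer cells of a type and less RNA per cell cannot be told apart.

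The first comparison asked how the p53 genes differ in DN3 cells of an autonomous graft. Cdkn1a and Trp53inp1 fell, from means of 65.4 and 104 CPM to 22.1 and 30.6 CPM, and the groups overlapped for Trp53, Mdm2 and Ccng1. Of the 9 members tested, 2 were lower and 0 higher, where 8.35% of the 10766 genes tested were lower and 6.53% higher (edgeR quasi-likelihood test, Benjamini-Hochberg adjusted p under 0.05). The other 4 tested members were below 10 CPM in every DN3 library, and Perp did not pass the filter on low counts.

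Trp53 (chr11:69580359-69591873) read 357, 374, 360 and 351 CPM in DN3 turnover, and 394, 158, 310, 393 and 307 CPM in DN3 autonomy. The turnover libraries were tightly grouped, and the autonomy libraries lay on both sides of them, with RP1134 far below. The log2 change was −0.22 (SE 0.21, adjusted p = 0.508, edgeR), an interval of −0.65 to 0.21 at 2 SE.

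Mdm2, the ligase that degrades p53 (chr10:117688875-117710758), read 71.4 to 101 CPM in DN3 turnover and 72.1 to 98.8 CPM in DN3 autonomy. Ccng1, which encodes cyclin G1, a partner of the phosphatase that acts on Mdm2 (chr11:40748552-40755311), read 66.1 to 91.2 CPM and 54.6 to 102 CPM. The groups overlapped for both genes. The log2 changes were 0.06 for Mdm2 (interval −0.27 to 0.39) and −0.03 for Ccng1 (interval −0.40 to 0.34), and the sign turned with upper-quartile scaling for Mdm2 and without single libraries for Ccng1.

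Cdkn1a encodes p21, the inhibitor of cyclin-dependent kinases through which p53 stops the cell cycle (chr17:29090976-29100727). It read 59.2, 62.3, 72.6 and 67.5 CPM in DN3 turnover, and 16.9, 17.4, 38.7, 19.4 and 18.3 CPM in DN3 autonomy. Every autonomy library lay below every turnover library, and 4 of the 5 stood close together with RP1135 above them. The group means were 65.4 ± 5.9 CPM (SD, n = 4) and 22.1 ± 9.3 CPM (SD, n = 5), a log2 change of −1.57 (SE 0.25, adjusted p = 0.00228, edgeR). Leaving out each DN3 library in turn gave −1.87 to −1.47 with the call kept each time, and the change was −1.55 without RP1141B. In a model of all 18 libraries the call ended, at −1.56 with an adjusted p of 0.172. RP1135, the library with the most Cdkn1a in autonomy, was also the one with the most RNA of the 5 other-cell lists. It also held the most DN3 marker RNA, 1862 CPM against 829 to 1268 CPM in the other DN3 autonomy libraries. The part of either in the difference was not tested. An antisense gene shares 273 exon bases with Cdkn1a, and reads of the pair cannot be told apart if strand was not used in counting.

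Trp53inp1 encodes a nuclear protein that aids p53 in arrest and death and also takes part in autophagy (chr4:11156431-11174379). It read 93.4, 144, 72.1 and 106 CPM in DN3 turnover, and 29.3, 48.0, 41.6, 20.7 and 13.3 CPM in DN3 autonomy. The highest autonomy library lay below the lowest turnover library, and the order of the autonomy libraries was not that of Cdkn1a: RP1134 was highest here and second lowest there. The means were 104 ± 30 CPM (SD, n = 4) and 30.6 ± 14.4 CPM (SD, n = 5), a log2 change of −1.77 (SE 0.34, adjusted p = 0.0047, edgeR). The call held without each library in turn, with changes of −2.00 to −1.56, and in the model of all 18 libraries. RP1141B, whose DP markers were highest, read 106 CPM of Trp53inp1, inside the range of the other turnover libraries, and the change was −1.76 without it.

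The remaining members were scarce in DN3 cells. Phlda3, which restrains Akt at the membrane, read 1.82 to 6.88 CPM in turnover and 4.16 to 7.88 CPM in autonomy. Sesn2, a stress-induced restraint on mTORC1, read 1.19 to 5.33 CPM and 2.52 to 7.04 CPM. Zmat3, an RNA-binding zinc finger protein, stayed below 2 CPM in every DN3 library. For these 3 genes the groups overlapped and no change passed the test. Pmaip1, which encodes the death protein Noxa (chromosome 18), read 2.69, 0.489, 0.562 and 0.738 CPM in turnover, and 1.86, 7.13, 4.67, 2.93 and 1.57 CPM in autonomy. Its log2 change of 1.68 (SE 0.73) did not pass the test (adjusted p = 0.134, edgeR), and RP1140A lay inside the autonomy range. Perp, a desmosome protein gene that p53 induces in epithelia, had 1 read in all 18 libraries, in DN3 autonomy RP1133. A count of 0 allows up to 3 reads, which is 0.114 to 0.568 CPM across the other libraries.

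**Figure D2:**
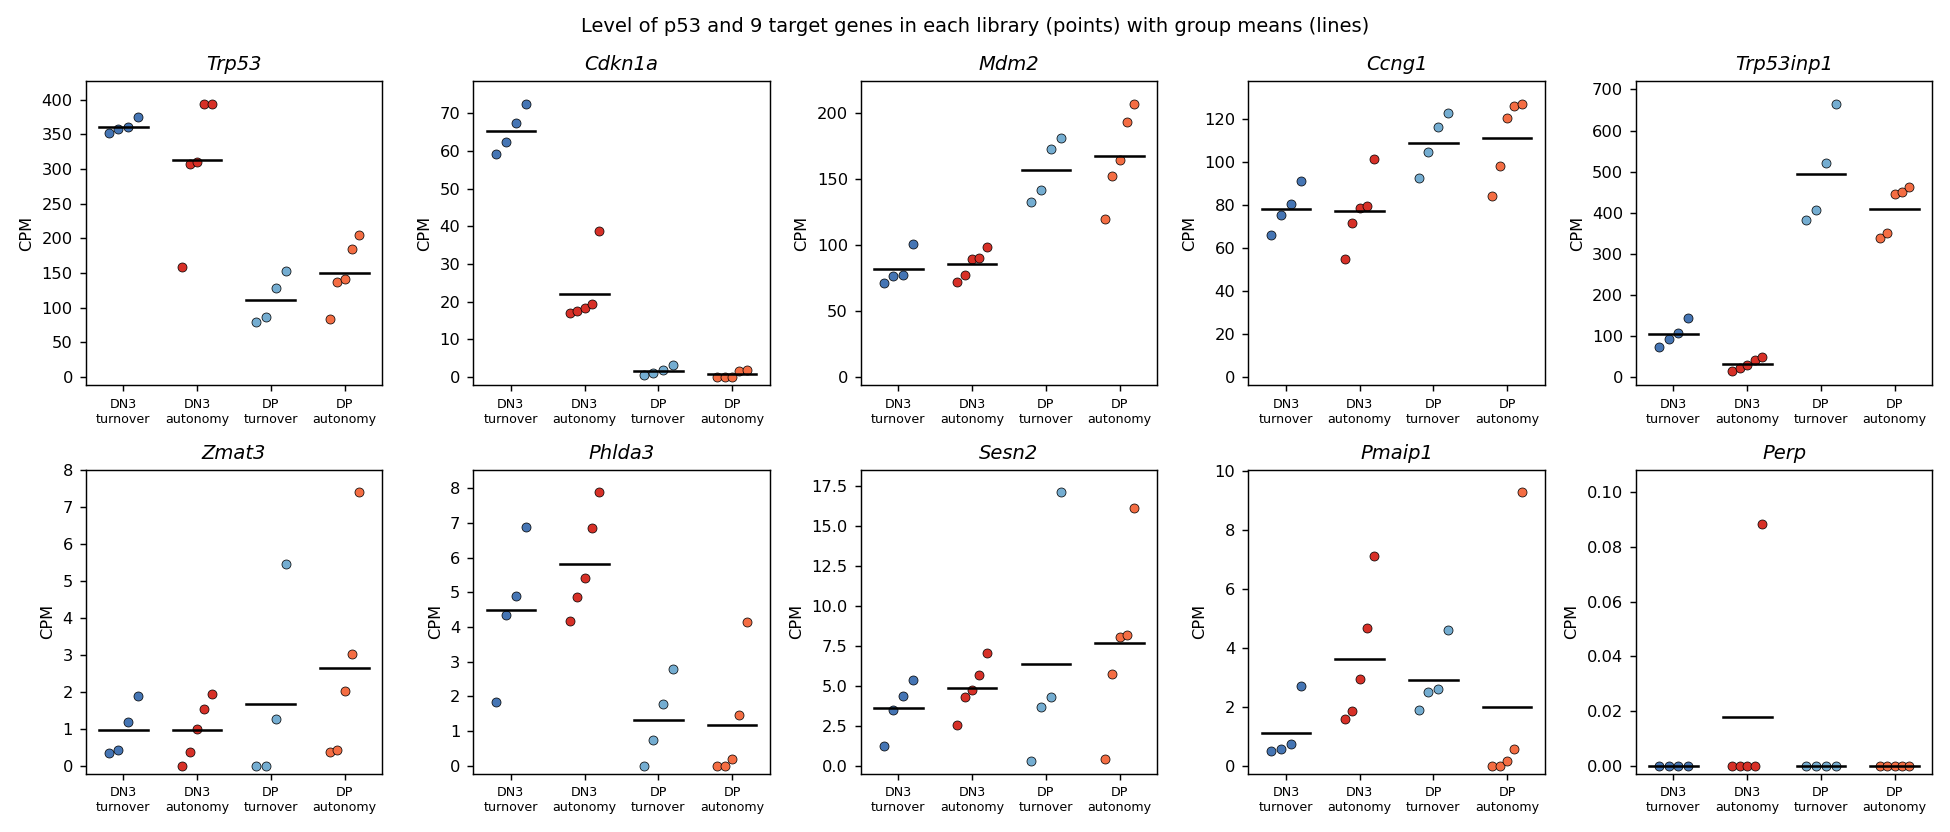
Level of each of the 10 genes in every library (y axis, CPM, linear and different in each panel; points, libraries; lines, group means; 4 turnover and 5 autonomy libraries per stage). Cdkn1a and Trp53inp1 separate the DN3 groups, Trp53 and Cdkn1a are lower and Mdm2 and Trp53inp1 higher in DP cells, and the lower row stays under 20 CPM.

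Per kilobase of exon, Trp53 stood highest in DN3 turnover, at 89.2 ± 2.5 CPM per kb (SD, n = 4). Ccng1 (22.3 ± 3.0), Cdkn1a (18.4 ± 1.7), Mdm2 (16.0 ± 2.6) and Trp53inp1 (16.0 ± 4.7) followed, and the libraries of neighbours among these 4 overlapped. Phlda3 came next at 2.88 ± 1.34 CPM per kb, then Sesn2 at 1.03 ± 0.51, Pmaip1 at 0.41 ± 0.38 and Zmat3 at 0.08 ± 0.06. In DN3 autonomy the first 3 places were those of Trp53, Ccng1 and Mdm2, at 77.2 ± 23.8, 22.0 ± 4.8 and 16.8 ± 2.1 CPM per kb. Cdkn1a and Trp53inp1 dropped to 6.23 ± 2.62 and 4.72 ± 2.22 CPM per kb, near Phlda3 at 3.74 ± 0.97.

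A wider list of 55 p53 targets, ordered by role, moved in both directions in DN3 autonomy. Of 47 tested, 6 were higher, 9 lower and 32 did not pass. Of all 10766 genes tested, 6.53% were higher and 8.35% lower, shares that also stand beside the counts of each DN3 list below. The median log2 change of the targets was 0.02, beside −0.05 for all genes tested. With the A and B libraries of a number summed, 1 was higher and 6 lower, and in a model of all 18 libraries 3 and 5.

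Among targets in arrest and feedback, 4 of 13 tested fell and 1 rose. Beside Trp53inp1 and Cdkn1a these were Btg2, an antiproliferative cofactor, which went from 131 ± 60 CPM down to 47.2 ± 8.1 CPM (log2 −1.48 with an SE of 0.25, edgeR adjusted p = 0.00293). RP1141B held the most Btg2 of the turnover libraries, 220 CPM against 90.2 to 107, and without it the change was −1.10 with the call kept. Ccng2, an atypical cyclin of quiescent cells, fell by 1.20 on the log2 scale. It is named as the last of the 4 after its values were seen, and its call ended without turnover RP1140A, RP1140B or RP1141B or autonomy RP1137 or RP1138. Gtse1, a mitotic protein that holds p53 in check, rose from 36.1 ± 2.4 to 67.4 ± 11.8 CPM (log2 0.89).

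Among death targets 2 of 12 rose and 0 fell, with 10 not passing. Bid, which links death receptors to the mitochondria, rose from 45.8 ± 9.6 CPM to 93.5 ± 8.5 CPM (log2 1.02 with an SE of 0.18, edgeR adjusted p = 0.0033), with no overlap: 35.6 to 57.6 CPM against 81.0 to 102. Pidd1, a scaffold of the PIDDosome, rose by log2 0.73, a call that ended without turnover RP1141A or RP1141B or autonomy RP1133. The median of the list was 0.32.

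Among repair and nucleotide targets 2 of 9 rose and 2 fell. Pcna, the sliding clamp of replication, rose from 655 ± 75 to 1082 ± 159 CPM (log2 0.71), and Xpc, a damage sensor of nucleotide excision repair, fell from 53.9 ± 8.4 to 28.1 ± 3.3 CPM (log2 −0.95). Both calls held without each library. Rad51c (log2 0.99) kept its call only without turnover RP1140A or autonomy RP1135. Mgmt (log2 −1.26) lost its call without turnover RP1140A or RP1141A or autonomy RP1133, RP1137 or RP1138.

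Among targets in metabolism, redox and growth control 1 of 13 rose and 3 fell. Sesn1, the sestrin of this list that is well expressed here, fell from 116 ± 15 CPM to 59.6 ± 11.3 CPM (log2 −0.97 with an SE of 0.17, edgeR adjusted p = 0.00345), and no autonomy library reached the turnover range. Abhd4, a lipase, fell from 9.90 ± 3.96 to 2.49 ± 0.89 CPM (log2 −2.01). Dcxr, a carbonyl reductase, fell from 9.25 ± 1.30 to 1.26 ± 1.09 CPM (log2 −2.83), a call lost without RP1140A. Tigar, which lowers glycolytic flux, rose from 2.16 ± 0.70 to 7.29 ± 3.19 CPM, a call lost without turnover RP1140A or RP1140B or autonomy RP1134 or RP1138.

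Of 21 upstream regulators, 20 were found, 17 were tested, 1 rose and 2 fell. Chek1, the kinase of the replication checkpoint, rose from 83.5 ± 28.1 to 155 ± 17 CPM (log2 0.88), and its call was lost without RP1140A. It is also among the cell-cycle genes of the next paragraph, and counts in both lists wherever they are given. Crebbp, an acetyltransferase that modifies p53, fell from 74.9 ± 11.7 to 36.1 ± 7.8 CPM (log2 −1.06), and Trp53bp1, which gathers at DNA breaks, from 133 ± 15 to 81.5 ± 13.5 CPM (log2 −0.71). The Trp53bp1 call was lost with A and B libraries summed (edgeR adjusted p = 0.0559) and in a model of all 18 libraries (0.0654). The kinases Atm and Atr did not pass the test, at log2 0.11 and −0.11.

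Most of the cell-cycle genes that p21 represses through the DREAM complex and E2F were higher in DN3 autonomy. Of 25, all tested, 21 were higher and 0 lower, with a median log2 change of 0.86. E2f1 (log2 −0.21) and Cdc25a (−0.03) were among the 4 that did not pass. The largest were Ccne1, from 58.3 ± 14.4 to 158 ± 50 CPM (log2 1.43), and Ccne2, from 144 ± 16 to 354 ± 97 CPM (log2 1.29), the E-type cyclins that start S phase. Without turnover RP1140A 14 were called, with A and B libraries summed 10, and none was lower under any setting tried. Whether these changes follow from the lower Cdkn1a was not tested.

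The DP comparison asked the same at the later stage, and no member passed the test. Of 9 tested, 0 were higher and 0 lower, where 0.861% of the 10339 genes tested were higher and 0.861% lower. At an unadjusted p under 0.05 the count was also 0, as it was for adjusted p with DESeq2 and limma voom. In DP autonomy 9 macrophage and dendritic cell markers summed to 20.7 to 193 CPM, against 8.79 to 40.0 CPM in DP turnover. The 6 DN3 markers summed to 127 to 237 CPM in DP autonomy and 59.0 to 73.8 CPM in DP turnover, with no overlap, and 1 of the 5 tested was higher. The part of either list in the values below was not tested.

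Trp53 read 85.9, 128, 152 and 79.5 CPM in DP turnover, and 205, 84.1, 137, 185 and 140 CPM in DP autonomy. The groups overlapped, and the log2 change was 0.42 (interval −0.11 to 0.94). Cdkn1a read 1.02, 0.494, 3.25 and 1.88 CPM in DP turnover, and 1.89, 0, 1.46, 0 and 0 CPM in DP autonomy. The 3 libraries without a read were RP1135, RP1137 and RP1138, where a count of 0 allows up to 0.318, 0.144 and 0.453 CPM. At this depth a change of Cdkn1a between the DP groups was not detectable (log2 −1.35, interval −4.36 to 1.65).

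Trp53inp1 was abundant in DP cells, at 407, 382, 665 and 522 CPM in turnover and 339, 349, 447, 463 and 450 CPM in autonomy. The groups overlapped, with RP1141A highest of all. The log2 change was −0.28 (interval −0.62 to 0.05). Mdm2 read 133 to 182 CPM in turnover and 120 to 207 CPM in autonomy, and Ccng1 92.3 to 123 CPM and 84.1 to 127 CPM. Their log2 changes were 0.08 (interval −0.28 to 0.44) and 0.01 (interval −0.35 to 0.37). Zmat3, Phlda3, Sesn2 and Pmaip1 scattered more between DP libraries than between groups: Sesn2 ran from 0.306 to 17.1 CPM in turnover and from 0.424 to 16.1 CPM in autonomy.

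Over all genes tested in DP cells, 0.861% were higher and 0.861% lower. Of the wider list, 46 targets were tested in DP cells, 0 were higher and 2 lower, with a median of −0.19 beside −0.02 for all genes. The 2 were Ckap2, a spindle protein (103 ± 42 to 40.0 ± 7.8 CPM, log2 −1.38), and Ccng2 (222 ± 39 to 139 ± 11 CPM, log2 −0.69). The Ckap2 call held only without turnover RP1141A or autonomy RP1138, and that of Ccng2 only without turnover RP1140A or autonomy RP1138. At an unadjusted p under 0.05, 3 targets were higher and 7 lower. DESeq2 called 2 higher and 3 lower, and limma voom 0 and 2. None of 17 upstream regulators was called by edgeR, 3 were lower at an unadjusted p under 0.05, and DESeq2 and limma voom called 3 and 2 of them lower.

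Of the cell-cycle list, 6 of 25 were lower in DP autonomy and 0 higher, with a median of −0.63. Ccna2, the cyclin of S phase and mitosis, fell from 333 ± 86 to 108 ± 47 CPM (log2 −1.64), and Bub1, a spindle checkpoint kinase, from 212 ± 21 to 75.4 ± 32.5 CPM (log2 −1.50). Both calls were lost without DP turnover RP1140B, when 1 of the 25 was lower. The count was 3 without turnover RP1140A or autonomy RP1133, 4 without turnover RP1141B or autonomy RP1135 or RP1137, 10 with DESeq2 and 0 with A and B libraries summed.

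**Figure D3:**
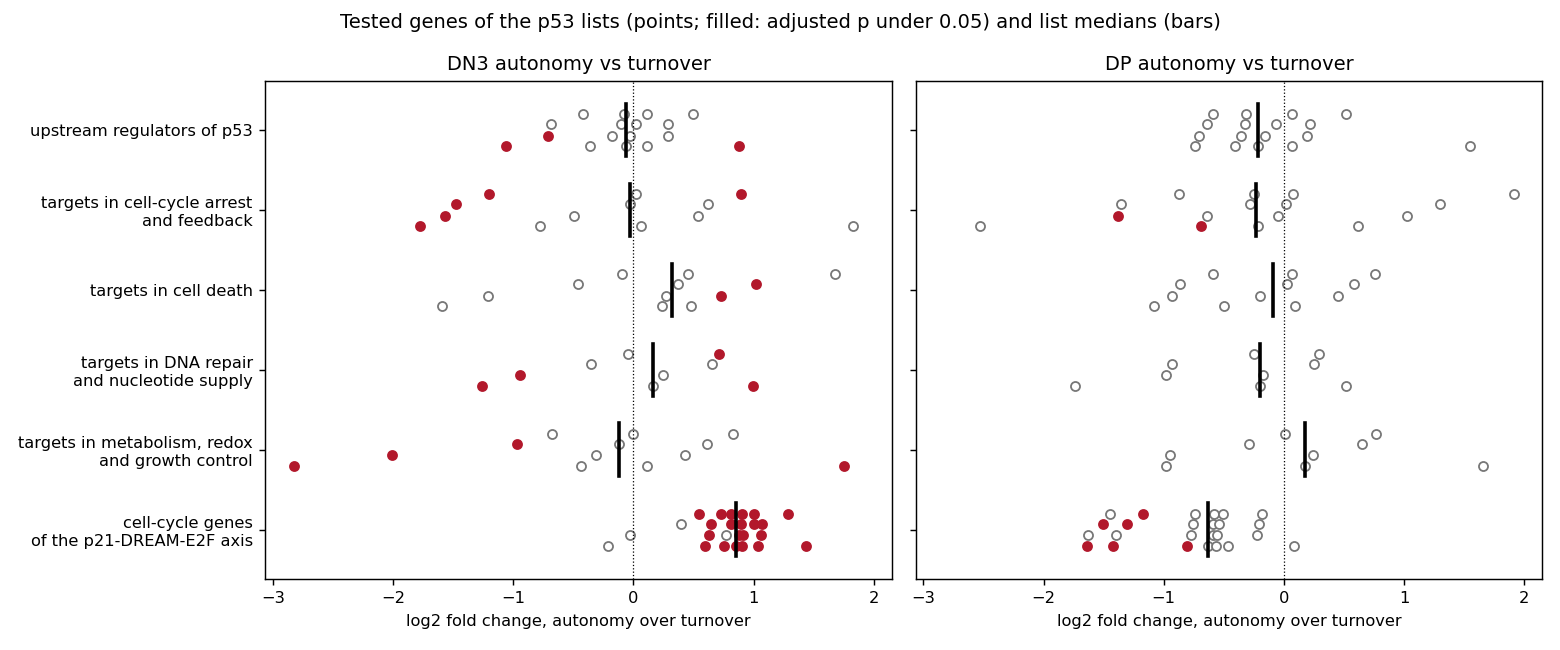
Log2 fold change, autonomy over turnover, of each tested gene in the 6 lists (points; filled where the edgeR adjusted p was under 0.05; bars, list medians) in DN3 and in DP cells. Calls in the target lists lie on both sides of 0 in DN3 cells, and the cell-cycle list has medians of 0.86 in DN3 cells and −0.63 in DP cells.

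Whether autonomy acted differently at the 2 stages was tested as an interaction in all 18 libraries. Among the members it was Trp53inp1 that differed: its log2 change was −1.77 in DN3 cells and −0.28 in DP cells fitted apart, and the difference of the log2 changes, DP minus DN3, was 1.50 (SE 0.41, adjusted p = 0.0336, edgeR). That made 1 of 9 members higher and 0 lower, where 2.88% of 11521 genes tested were higher and 2.61% lower. The call was narrow. It was lost, at adjusted p up to 0.0686, without any of 9 of the 18 libraries: DN3 turnover RP1140A, RP1140B or RP1141B, DN3 autonomy RP1133 or RP1137, DP turnover RP1140A or RP1140B, and DP autonomy RP1136 or RP1137. It was also lost with the A and B libraries summed (adjusted p = 0.181). For Cdkn1a the difference was 0.06 with an SE of 1.63, so that the few DP reads left it unresolved, and for Trp53 it was 0.64 (SE 0.37, adjusted p = 0.356).

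In the wider list 4 targets had a higher difference and 5 a lower one, of 50 tested, where 2.88% of all genes were higher and 2.61% lower. Btg2 (1.44) and Sesn1 (0.98) shared the sign of Trp53inp1, and these calls held without each library. In DP cells Sesn1 stood at 254 ± 25 CPM in turnover and 259 ± 21 CPM in autonomy, and Btg2 at 438 ± 24 and 428 ± 94 CPM. Gadd45a, a growth arrest gene, had a difference of 2.07, with 11.9 ± 3.9 and 29.5 ± 5.7 CPM in the DP groups. Its call was lost without DN3 turnover RP1141B, DN3 autonomy RP1138, or DP turnover RP1141A or RP1141B. Psrc1 (−3.06, or −3.70 without DP autonomy RP1136), Ckap2 (−1.99), Gtse1 (−1.76), Pidd1 (−1.60) and Pcna (−0.96) had lower differences, all kept without each library. Among the upstream regulators Chek1 differed by −1.46, lost without DN3 turnover RP1140A, and Crebbp by 1.0, kept only without DN3 autonomy RP1135 or DP autonomy RP1133. Of the 25 cell-cycle genes 21 had a lower difference and 0 a higher one, led by Ccne1 (−2.87) and Ccna2 (−2.54). With the A and B libraries summed these counts were 0 higher and 1 lower among the targets, and 9 lower among the cell-cycle genes.

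The stages were compared within each condition, where members and genes at large were called at like shares. In turnover, Mdm2 and Trp53inp1 were higher and Trp53 and Cdkn1a lower in DP than in DN3 cells, which is 2 of 9 members in each direction, where 15.8% of 11521 genes were higher and 19.1% lower. In autonomy, Mdm2, Trp53inp1 and Ccng1 were higher and Trp53 and Cdkn1a lower, where 23.7% of genes were higher and 25.2% lower. These 2 comparisons share no library.

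Trp53 went from 361 ± 10 to 111 ± 35 CPM in turnover (log2 −1.69 with an SE of 0.28, edgeR adjusted p = 0.000111), with no overlap. In autonomy it went from 312 ± 96 to 150 ± 47 CPM (log2 −1.06 with an SE of 0.25, edgeR adjusted p = 0.00141), where DN3 RP1134 lay inside the DP range. Cdkn1a fell from 65.4 to 1.66 ± 1.20 CPM in turnover (log2 −5.29, SE 0.88) and from 22.1 to 0.669 ± 0.930 CPM in autonomy (log2 −5.23, SE 0.84), with 91 and 24 reads in all left in the DP groups. With so few reads the size moved: to −5.91 in turnover without DP RP1141A, and in autonomy to −5.98 and −6.07 without DP RP1133 and RP1136, −7.00 with limma voom and −7.25 with the replicate block, with the call kept each time.

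Trp53inp1 ran the other way, from 104 to 494 ± 129 CPM in turnover (log2 2.25, SE 0.31, adjusted p = 1.71e-05, edgeR) and from 30.6 to 409 ± 60 CPM in autonomy (log2 3.75, SE 0.30, adjusted p = 5.21e-09, edgeR). Mdm2 rose from 81.6 ± 13.2 to 157 ± 24 CPM (log2 0.95, SE 0.18) and from 85.5 ± 10.7 to 167 ± 34 CPM (log2 0.97, SE 0.16), with no overlap in either condition. Ccng1 was higher by log2 0.48 in turnover without passing the test (SE 0.19, adjusted p = 0.0597, edgeR), although the groups did not overlap, and passed it with DESeq2 and limma voom and without DN3 RP1140B or DP RP1140A. In autonomy it rose by log2 0.53 (SE 0.17, adjusted p = 0.0154, edgeR). Phlda3 was lower in every DP autonomy library than in any DN3 autonomy library, at 0 to 4.14 CPM against 4.16 to 7.88 CPM, and the log2 change of −2.31 did not pass the test (SE 1.16, adjusted p = 0.107, edgeR) but passed it without DP RP1135 (−3.78), with limma voom (−4.37) and with the replicate block (−5.03). Per kilobase, Trp53inp1 thus stood first in DP turnover, at 76.3 ± 20.0 CPM per kb, above Ccng1 (31.0 ± 3.8), Mdm2 (30.9 ± 4.6) and Trp53 (27.5 ± 8.6). The last 3 lay within each other's spread, and Cdkn1a was at 0.47 ± 0.34 CPM per kb.

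**Figure D4:**
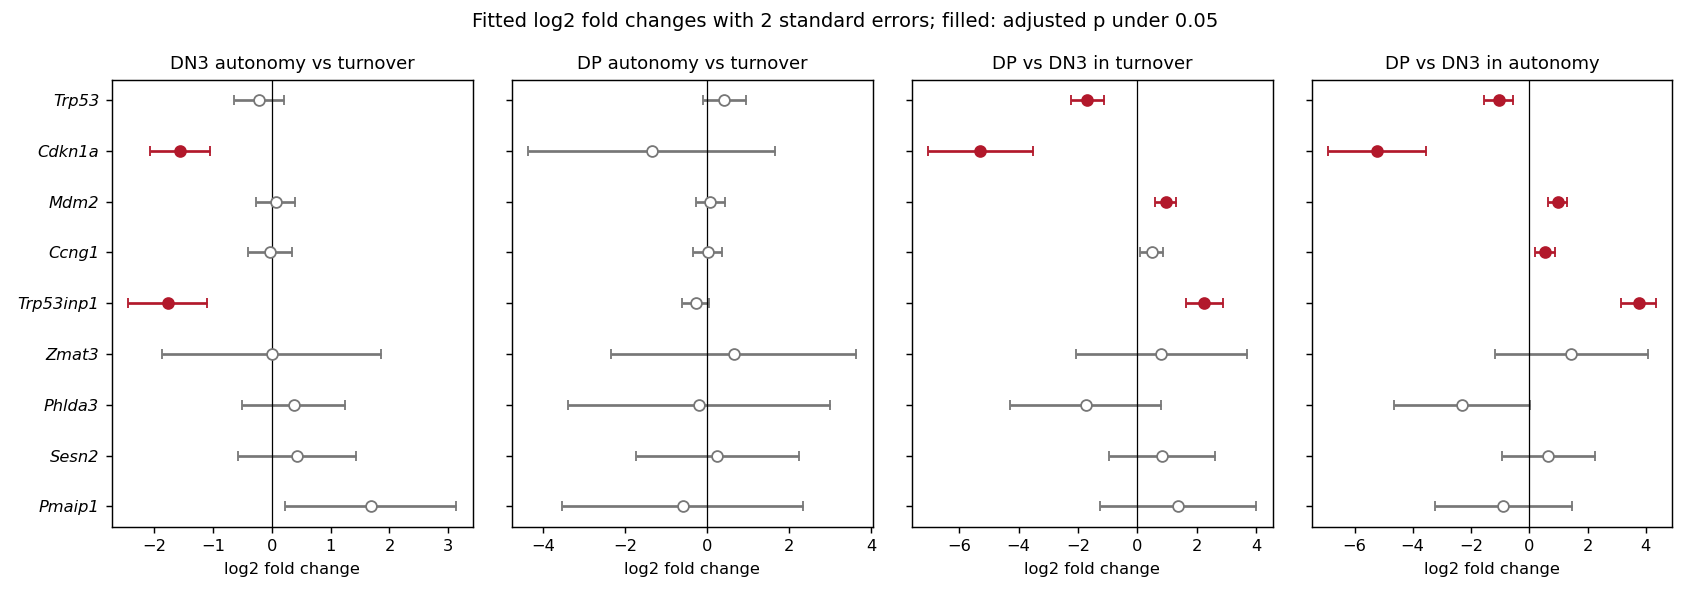
Fitted log2 fold change of 9 members (points, edgeR; bars, 2 standard errors; filled where the adjusted p was under 0.05; the x axes differ) for autonomy over turnover in DN3 and DP cells and for DP over DN3 in each condition. The DN3 panel has 2 calls (Cdkn1a and Trp53inp1), the DP panel 0, and the stage panels 4 and 5.

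The wider target list was mixed between stages too. In turnover 13 of 50 were higher in DP cells and 5 lower, where 15.8% of all genes tested were higher and 19.1% lower. The median was 0.61, beside −0.04 for all genes. In autonomy 16 were higher and 11 lower, where 23.7% of all genes tested were higher and 25.2% lower. The median was 0.0046, beside −0.003 for all genes. Summing the A and B libraries left 7 higher and 3 lower in turnover. Fas, a death receptor, rose most: from 19.3 ± 22.7 to 263 ± 34 CPM in turnover (log2 3.77) and from 8.40 ± 3.67 to 283 ± 41 CPM in autonomy (log2 5.05). RP1141B, the DN3 library with the most DP markers, held 52.6 CPM of Fas, against 1.97 to 12.9 CPM in the other turnover libraries, and without it the change in turnover was 5.04. Among the arrest targets Ccng2 (log2 2.71 and 3.22) and Btg2 (1.75 and 3.18) were higher in DP cells in turnover and in autonomy. In autonomy Psrc1 (−2.26, or −2.90 without DP autonomy RP1136) and Ckap2 (−1.64) were lower.

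Among the death targets Trp53i11 (0.93 and 1.06) was also higher, Apaf1, the apoptosome core, rose by log2 1.42 in turnover (lost without DP turnover RP1141A), and Bbc3, which encodes Puma, by 2.72 in autonomy (3.31 without DN3 autonomy RP1133). Bid (−1.44 and −1.70) and Aen (−1.54 and −1.43) were lower in both conditions. Bax was lower in both as well (−0.69 and −0.70), with the call in turnover lost without DN3 turnover RP1141A or RP1141B, and Pidd1 in autonomy (−1.72). Among repair targets Pcna was lower (−0.65 and −1.61), and Rad51c in autonomy (−2.04). Xpc (1.42), Ercc5 (1.01) and Ddb2 (0.48) were higher in autonomy. In turnover Ercc5 (0.66), Polk (0.95) and Rrm2b (1.17) were higher, calls that rested on single libraries. That of Ercc5 was lost without DN3 RP1140A or RP1141A or DP RP1141A or RP1141B, that of Polk held only without DN3 RP1141A or DP RP1140A or RP1141B, and that of Rrm2b only without DN3 RP1141B or DP RP1140A. Among metabolic targets Sesn1 (1.13 and 2.12) and Ddit4, an mTORC1 inhibitor (1.88 and 3.32), were higher, as were Rap2b (1.08 and 1.58, with the call in turnover lost without DP turnover RP1140B) and Ephx1 in autonomy by 3.18. Ptp4a3 was lower in autonomy (−0.75).

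Among the 17 upstream regulators 6 were higher and 1 lower in DP cells in turnover, and 5 and 2 in autonomy. Over all genes tested the shares were 15.8% higher and 19.1% lower in turnover, and 23.7% and 25.2% in autonomy. Trim24, a ligase for p53, rose from 25.3 ± 8.0 to 76.9 ± 6.1 CPM in turnover (log2 1.61) and by 2.20 in autonomy. Mdm4, the inhibitory partner of Mdm2, rose from 103 ± 27 to 269 ± 57 CPM (1.38) and by 1.04. Atr rose by 1.14 in turnover, and Crebbp by 0.80 in turnover and 1.80 in autonomy. Chek1 was lower (−1.05 and −2.51), and Chek2, a kinase of the break response, in autonomy (−1.03). Of the 25 cell-cycle genes 3 were higher and 9 lower in DP turnover, with Mki67 and Top2a (both 1.25) and Mcm3 (−1.70) and Mcm6 (−1.67) the furthest. In autonomy 24 were lower and 0 higher, led by Mcm6 (−3.02) and Mcm2 (−2.78), with Mki67 (−0.90) and Top2a (−0.68) among them. The Top2a call in autonomy was lost without DN3 RP1134 or DP RP1133, RP1136 or RP1137. It was also lost with the replicate block (−0.26).

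The genes whose profile over the 18 libraries was most like that of Cdkn1a were sought among 9100 genes, by the root mean square difference of centred log2 values. The nearest were Khdc1a (0.62), Fam69b (0.66), Blk, a Src-family kinase (0.66), Cd59a (0.67) and Myc (0.68). Khdc1a read 31.0, 10.4, 0 and 0 CPM on average in DN3 turnover, DN3 autonomy, DP turnover and DP autonomy, and Blk 24.4, 7.89, 0 and 0 CPM. Myc read 683, 504, 41.9 and 20.7 CPM. All 5 thus had the order of Cdkn1a, DN3 turnover over DN3 autonomy over DP, which is what the measure selects for.

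In the authors' deposited table Cdkn1a had a log2 change of −1.55 with an adjusted p of 6.99e-07 in DN3 cells, and Trp53inp1 −1.77 with 1.42e-05. In the authors' deposited table no member passed an adjusted p of 0.05 in DP cells, where the lowest was 0.385, for Trp53inp1.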

How the data were processed

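RNA sequencing counts of 18 libraries in 4 groups were used as deposited: raw whole-number counts of reads for each Ensembl gene. The submitters' processing notes name FastQC, HISAT2, featureCounts, DESeq2, mm10 and GRCm38. Versions, settings and strand are not stated there. The authors also deposited a table for each cell type with log2 changes, p-values, adjusted p-values, a mean signal and a test score per gene. It supplied gene symbols, and its log2 changes and adjusted p-values are printed only where named.

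Counts were fitted in R 4.3.3 with edgeR 4.0.16 (quasi-likelihood test, TMM, filterByExpr), each stage alone for autonomy against turnover and all 18 libraries for the interaction and the stages. P-values were adjusted over all genes tested by Benjamini-Hochberg at 0.05. CPM values share a TMM scale. Fits were tested on simulated data. Alternatives were DESeq2 1.42.0, limma 3.58.1 (voom), other scalings and filters, summed A and B libraries, a replicate block, a model of all libraries and each library left out. No libraries agreed within sampling noise.

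The text names the 10 members, up to 3 genes per direction in each p53 list (2 for the cell-cycle list) by size of change among calls, and the 5 genes nearest to Cdkn1a. Members and lists were chosen with earlier results of these data known.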

Additional observations from a re-analysis of the deposited data

Results flagged for a closer look

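In 37 groups of libraries with any reads of a member, the highest or lowest library was compared with the spread of the others, a check that chance fails in about 1 group in 20. Cdkn1a in DN3 autonomy RP1135 read 38.7 CPM, against 16.9 to 19.4 CPM in the other 4 libraries. Without RP1135 the log2 change of Cdkn1a in DN3 cells was −1.87 with the call kept. Pmaip1 in DN3 turnover RP1140A read 2.69 CPM, against 0.489 to 0.738 CPM. Pmaip1 in DP autonomy RP1133 read 9.27 CPM, against 0 to 0.576 CPM. Perp in DN3 autonomy RP1133 read 0.0885 CPM from 1 read, against 0 in the other 4 libraries. The effect of autonomy on Trp53inp1 differed between the stages by a log2 of 1.50 in the test of the interaction.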

How the results depend on the processing

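The labels do not tie libraries to animals, and depth limits Zmat3, Phlda3, Sesn2, Pmaip1 and the DP values of Cdkn1a, whose intervals span several fold.

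The calls on Cdkn1a and Trp53inp1 in DN3 cells held under every alternative run except that a model of all 18 libraries left 1 member called, Trp53inp1, while Cdkn1a (−1.56) lost its call, and the cause was not tested. No member was called in DP cells under any alternative. Members called in the interaction numbered 2 with limma voom, 2 with the random replicate block (voom), 0 with A and B libraries summed and 0 to 2 without single libraries. The second was Pmaip1, at −5.03 with voom and with the block. Voom called Phlda3 (−4.37) and Pmaip1 (−3.23) lower in DP than in DN3 autonomy. Ccng1 passed in turnover with RLE scaling (0.50), the stricter filter, DESeq2 and voom (0.49). Pmaip1 also passed without DP autonomy RP1133, in the interaction (−5.48) and between stages in autonomy (−4.11).

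Signs turned for uncalled members near 0 or with few reads. In DN3 cells Mdm2 was −0.0069 with upper-quartile scaling, and Zmat3 0.0098 with RLE scaling, 0.0082 with no filter and 0.010 in the model of all libraries. With A and B summed, Mdm2 was −0.0040, Ccng1 −0.022 and Sesn2 −0.098 in DP cells, and Mdm2 −0.074 and Ccng1 −0.0012 in the interaction. Voom and the block gave Cdkn1a −1.31 and −1.30 in the interaction, and Zmat3 −1.52 and −1.17 between stages in turnover, where the block gave Sesn2 −0.054. Voom gave Sesn2 −0.024 between stages in autonomy. Without single libraries the ranges were −0.12 to 0.088 (Ccng1) and −0.40 to 0.55 (Zmat3) in DN3 cells. They were −0.010 to 0.17 (Mdm2), −0.064 to 0.10 (Ccng1), −0.20 to 2.63 (Zmat3), −0.62 to 0.46 (Phlda3) and −0.21 to 1.46 (Sesn2) in DP cells. In the interaction they were −0.78 to 0.67 (Cdkn1a), −0.10 to 0.12 (Mdm2), −0.058 to 0.15 (Ccng1), −0.20 to 2.64 (Zmat3), −2.04 to 0.14 (Phlda3) and −0.62 to 1.07 (Sesn2). Between stages in turnover they were −1.20 to 1.36 (Zmat3) and −0.38 to 1.22 (Sesn2).

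DN3 and DP libraries share names, and the labels do not say whether libraries with the same name are from the same graft. Their deviations from the group means correlated by −0.04 to 0.06. Such weak correlations cannot decide the question, since DN3 and DP cells of the same graft need not deviate alike. The stages were compared without pairing, and the replicate block was run as an alternative. With the replicate block 4 members were called between stages in turnover, as without it, and 6 rather than 5 in autonomy. Of all genes, 1602 were called in DN3 cells (2293 with DESeq2, 507 with A and B summed, 1006 in the model of all libraries, 811 without turnover RP1140A, 953 and 1060 without autonomy RP1137 and RP1138) and 178 in DP cells (736 with DESeq2, 434 with voom, 16 with A and B summed, 279 in the model of all libraries, and 33, 67 and 59 without turnover RP1140B, RP1141A and RP1141B and 66 and 98 without autonomy RP1133 and RP1135). The interaction called 633 (1037 with DESeq2, 145 with A and B summed), and the stages in turnover 4021 (2170 with A and B summed). Of the wider target list between stages, the block left 8 higher in turnover, and voom called 9 lower in turnover and 17 in autonomy.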
